A study of Mus musculus with 14 samples.

Results

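Mitochondrial ribosomal protein genes were taken as the rows of the count table whose Ensembl identifier maps, on the GRCm38 mouse genome, to a protein-coding symbol beginning with Mrpl or Mrps and a digit, plus Dap3. This rule gave 79 of the 52550 genes in the table. They comprise 27 proteins of the small subunit, 51 of the large subunit (Mrps18a and Mrps30 among them, in spite of their names) and Mrps36, which carries a ribosomal name but is known as a subunit of the 2-oxoglutarate dehydrogenase complex. All 79 passed the expression filter, which kept 16836 genes. RNA was measured in 14 tumors from mice of a mixed background that carried Trp53 flox/flox alleles with the reporter Rosa26 LSL-YFP/LSL-YFP, and in which a lentivirus carrying Cre, Cas9 and a guide RNA started lung adenocarcinomas. The guide targeted the bacterial beta-galactosidase gene in 6 KPY-Ctrl tumors and Setd2, which encodes the enzyme that trimethylates lysine 36 of histone H3, in 8 KPY-Setd2KO tumors. The paper describes tumors that were microdissected and sorted for live YFP-positive cells, whereas the deposited labels describe RNA from cell lines and other kits. There were fewer mice than tumors, and since no label ties a tumor to its animal, tumors were the unit of each test and p-values measure the spread between these tumors only.

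Mitochondria carry their own ribosome, which translates the 13 proteins encoded by the mitochondrial genome, all of them subunits of the respiratory chain or the ATP synthase. Its ribosomal RNAs are made inside the organelle, while every protein of its small and large subunits is encoded in the nucleus, translated in the cytosol and imported. Some of these proteins descend from bacterial ribosomal proteins and others were added during the evolution of mitochondria. Of the members here, 46 have a bacterial counterpart and 32 are specific to mitochondria.

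Total counts ranged from 20072236 to 51828846 per tumor. Setd2 was at 41.9 to 63.6 CPM (counts scaled to a common library size with TMM factors; median 53.8) in KPY-Ctrl and at 17.9 to 47.4 CPM (median 30.4) in KPY-Setd2KO, a difference of -0.81 in mean log2 CPM (two-sided exact permutation test, p = 0.00466). The edgeR log2 fold change was -0.74 (SE 0.22, adjusted p = 0.175), and -0.83 (adjusted p = 0.0272) with the leukocyte score described next as a covariate. The leukocyte score, the mean log2 CPM of 12 leukocyte markers, separated the tumors into 7 at 3.45 to 5.66 and 7 at 8.52 to 9.16, with 3 KPY-Ctrl and 4 KPY-Setd2KO tumors on each side of the gap. None of the 12 markers was at 0 in every tumor. The summed level of 10 macrophage markers ranged from 2750 to 64055 CPM in KPY-Ctrl and from 1903 to 102439 CPM in KPY-Setd2KO. The mean log2 CPM of 8 epithelial markers was 9.12 to 9.91 below the gap and 6.89 to 8.26 above it, and none of these markers was at 0 in every tumor. In bulk RNA, fewer cells of a type and less RNA per cell cannot be told apart. The sides of this gap are a description of measured values and not conditions of the study.

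The 79 genes together took 0.228% to 0.311% of all counts, a 1.36-fold range over the 14 tumors. The mitochondrial genome took 3.5% to 14.9%, a 4.26-fold range, with the highest shares in KPY-Setd2KO replicates 7 (14.9%) and 8 (11.9%). The mean log2 CPM of the 79 genes lay between 4.57 and 5.21 in KPY-Ctrl (4.86 ± 0.24, SD, n = 6) and between 4.56 and 5.12 in KPY-Setd2KO (4.94 ± 0.19, SD, n = 8). The small-subunit mean was 4.83 ± 0.24 in KPY-Ctrl and 4.88 ± 0.18 in KPY-Setd2KO, and the large-subunit mean was 4.87 ± 0.24 and 4.97 ± 0.20 (SD, n = 6 and 8). The genotypes overlapped in each of these means. The large-subunit mean minus the small-subunit mean ran from -0.039 to 0.29 over the 14 tumors.

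**Figure D1:**
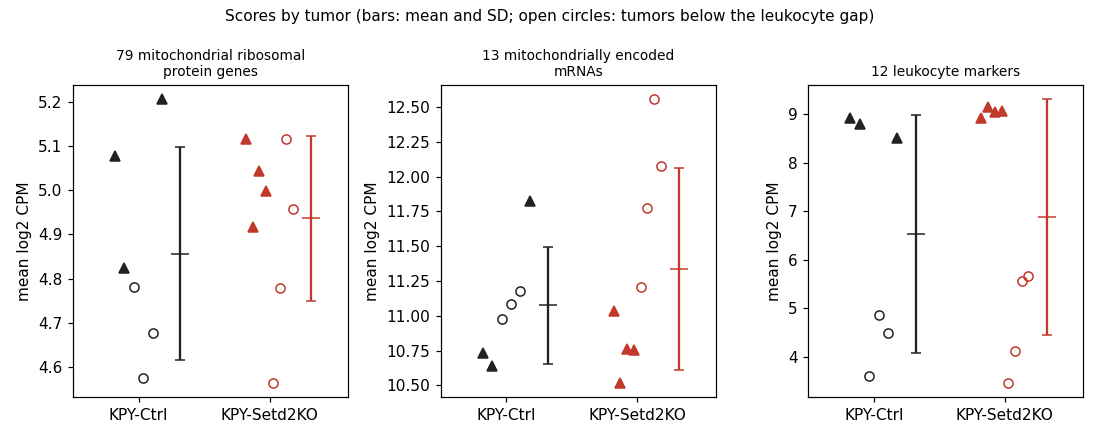
Mean log2 CPM per tumor of the 79 mitochondrial ribosomal protein genes, the 13 mitochondrially encoded mRNAs and the 12 leukocyte markers, by genotype; open circles are tumors below the gap in the leukocyte score, filled triangles tumors above it, and bars the mean and SD (6 KPY-Ctrl and 8 KPY-Setd2KO tumors). Genotypes overlap in all 3 panels, and the leukocyte score falls into separate sets at 3.45 to 5.66 and 8.52 to 9.16.

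Levels were compared between genes per length, as TPM (counts divided by transcript length and scaled to a fixed total per tumor) computed with the principal transcript of each gene. Mrps21, the counterpart of bacterial S21, was the highest of the 79 at 230 TPM on average, and also the highest with the union of all exons as the length (186 TPM). The next small-subunit gene was Mrps15 at 68.4 TPM. In the large subunit, Mrpl52 stood highest at 159 TPM, followed by Mrpl33, the counterpart of bacterial L33, at 150 TPM. The place of Mrpl33 rests on the length chosen, since union exons gave 13.1 TPM. That of Mrpl52 does so too, as its length is 418 bp by the principal transcript and 1109 bp by union exons. With union exons it stood below Mrpl34, whose length is 607 bp either way. The lowest small-subunit genes were Mrps26 (8.28 TPM) and Mrps25 (9.78 TPM), and the lowest large-subunit genes were Mrpl23 (2.94 TPM) and Mrpl47 (6.06 TPM). With union exons Mrps10 stood below Mrps26 and Mrps25, as its length rises from 1018 to 8079 bp.

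**Figure D2:**
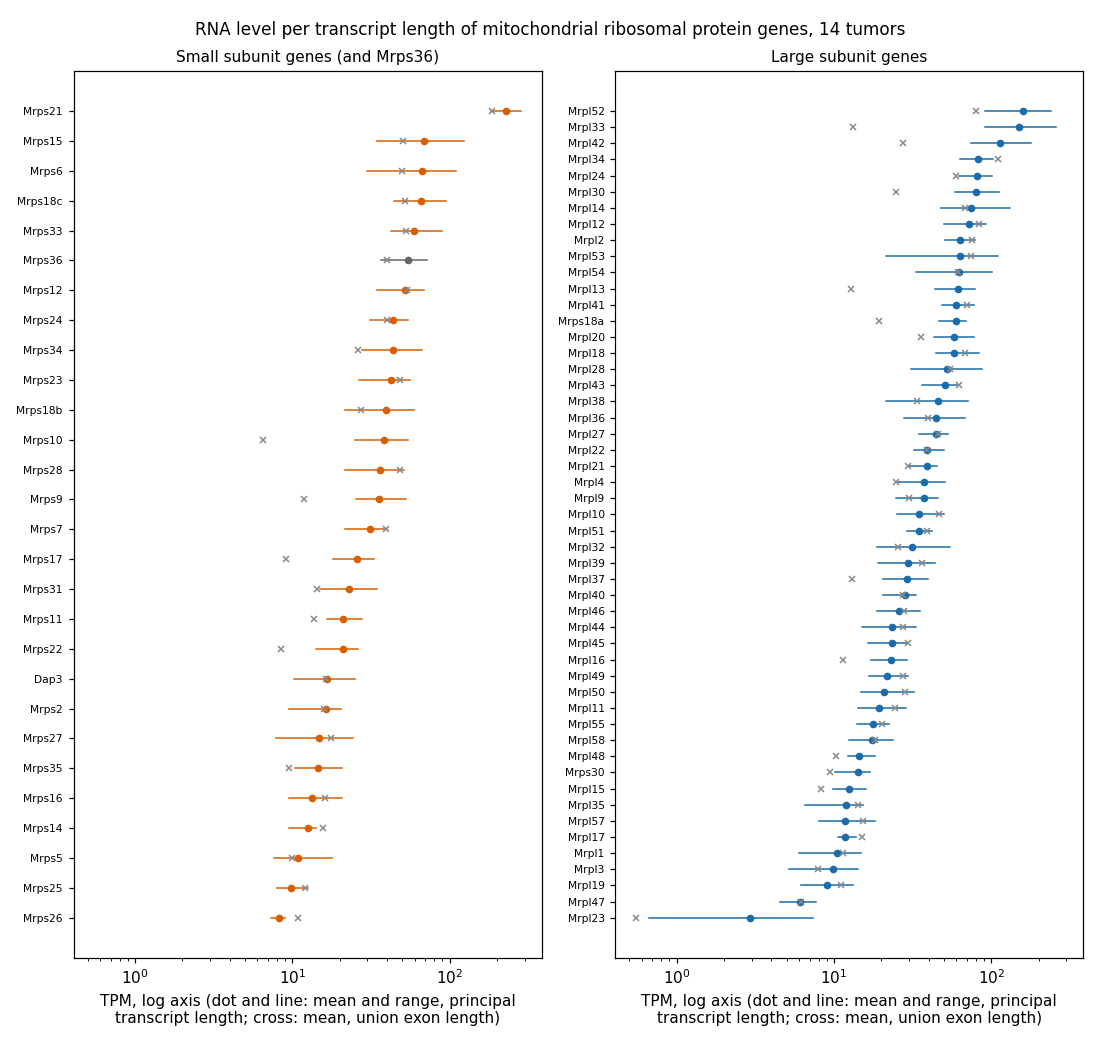
RNA level per transcript length (TPM, log axis) of the 27 small-subunit genes with Mrps36 and of the 51 large-subunit genes; dots are means and lines the range over 14 tumors with the principal transcript length, and crosses are means with the union exon length. Mrps21 leads with both lengths and Mrpl23 is lowest, while for genes such as Mrpl33 and Mrpl42 the length chosen moves the level several fold.

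The level of Mrpl23 is uncertain. Its row held 10 to 101 counts per tumor, while the processed pseudogene Mrpl23-ps1 held 853 to 2403. Mrpl23 itself thus had 0.767% to 8.42% of the summed counts of both. The summed row was at 24.4 to 56.9 CPM, in the range of other members, and Mrpl23 alone at 0.304 to 4.15 CPM. The 5 noncoding copies of members in the table, Mrpl23-ps1 included, held 20313 counts in all, or 1.51% of the 1343628 counts of the members. Exons of 8 members overlap another gene on the same strand and those of 29 members a gene on the opposite strand. Whether the counting used strand could not be settled from the sources used here, so reads of such neighbors may be shared.

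Across tumors of the same genotype the members moved together. The median correlation of a member with the mean of the other members was 0.645 after genotype means were removed (n = 14 tumors), against -0.018 for other genes with the member mean. The correlation was above 0 for 73 of 79. Mrpl17 (0.954), Mrpl51 (0.933), Mrpl27 (0.929) and Mrps26 (0.929) followed the rest most closely. The exceptions were Mrps5 (-0.505), Mrps27 (-0.345), Dap3 (-0.276), Mrpl38 (-0.237), Mrpl53 (-0.202) and Mrpl19 (-0.148). The median correlation between pairs of members was lower, at 0.342. Correlations of both signs enter the median of -0.018 over other genes. All values share the same libraries and scaling, and they are given as a description. As given below, 40 of 79 members had a positive slope on the leukocyte score past the threshold and 3 a negative one. The part of that score in these correlations was not tested. The within-genotype SD of a member was 0.345 log2 CPM in the median, against 0.670 for all genes tested. Mrpl49 (0.132), Mrps35 (0.146) and Mrpl10 (0.149) varied least, and Mrps15 (0.916), apart from the thinly counted Mrpl23 (0.943), varied most.

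The promoters of the members were examined because their RNAs moved together. RefSeq sequences on GRCm38.p6, from 250 bases before to 50 after the start, were matched by symbol for 69 of the 79 genes. These have 75 promoter entries, and a member gene counted if any of its entries matched. Shares of all promoters and of tested genes are per entry, so the units differ in a way that can raise the member share. CCGGAAG, the core bound by ETS factors including GABP, occurred on either strand in 26 of 69 member genes (37.7%), against 8.86% of all 32851 promoters and 15.9% of promoters of tested genes. ATGGCGG, the YY1 core, occurred in 13 (18.8%, against 4.05% and 7.15%), and GCGCATGC, the NRF1 core, in 8 (11.6%, against 2.71% and 4.59%). GGGCGGG, bound by SP factors, occurred in 29 (42.0%), which is close to its 43.1% among tested genes although above the 25.6% of all promoters. TATAAA was found in 5 (7.25%, against 13.6% and 8.13%) and CCAAT in 27 (39.1%, against 37.4% and 37.3%). The median GC content was 58.7% in member promoters, 60% in those of tested genes and 52.7% in all. All 6 sequences were searched on both strands, and none of them contains another. A match describes letters in a window and does not show binding. The ETS core was present in 10 of 23 small-subunit and 16 of 45 large-subunit genes.

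The promoters of 5 genes on which the results turn are shown 5′ to 3′ on the strand of the gene, with matches to the ETS, NRF1, YY1 and SP cores on either strand in capitals. Mrps15 (chr4:126046678-126046977, plus strand) had the steepest slope on the leukocyte score. Mrpl53 (chr6:83108858-83109157, plus) had the smallest p for the slope on mitochondrially encoded RNA, and Mrpl58 (chr11:115403502-115403801, plus) had the smallest p for that slope with the leukocyte covariate. Mrps12 (chr7:28741772-28742071, minus) followed Mrpl58 in that order. Mrps11 (chr7:78782881-78783180, plus) shares its start region with Mrpl46 (chr7:78783040-78783339, minus), so that 1 region serves a gene of each subunit.
Mrps15: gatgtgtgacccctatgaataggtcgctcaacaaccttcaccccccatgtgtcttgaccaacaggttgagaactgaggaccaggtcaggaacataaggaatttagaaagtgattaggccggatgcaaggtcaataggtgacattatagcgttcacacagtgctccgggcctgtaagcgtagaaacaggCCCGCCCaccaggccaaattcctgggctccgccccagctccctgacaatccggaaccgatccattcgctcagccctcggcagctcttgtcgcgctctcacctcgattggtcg
Mrpl53: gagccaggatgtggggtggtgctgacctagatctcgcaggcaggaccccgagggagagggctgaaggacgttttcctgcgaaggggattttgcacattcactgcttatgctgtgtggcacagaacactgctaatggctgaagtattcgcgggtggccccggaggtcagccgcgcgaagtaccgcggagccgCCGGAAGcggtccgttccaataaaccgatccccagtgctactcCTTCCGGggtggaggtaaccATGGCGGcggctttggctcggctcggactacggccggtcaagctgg
Mrpl58: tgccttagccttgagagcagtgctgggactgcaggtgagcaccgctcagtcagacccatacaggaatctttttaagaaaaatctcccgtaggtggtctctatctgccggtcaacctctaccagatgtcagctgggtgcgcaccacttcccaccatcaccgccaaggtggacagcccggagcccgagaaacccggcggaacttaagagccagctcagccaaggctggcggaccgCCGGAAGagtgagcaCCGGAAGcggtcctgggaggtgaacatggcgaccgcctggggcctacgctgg
Mrps12: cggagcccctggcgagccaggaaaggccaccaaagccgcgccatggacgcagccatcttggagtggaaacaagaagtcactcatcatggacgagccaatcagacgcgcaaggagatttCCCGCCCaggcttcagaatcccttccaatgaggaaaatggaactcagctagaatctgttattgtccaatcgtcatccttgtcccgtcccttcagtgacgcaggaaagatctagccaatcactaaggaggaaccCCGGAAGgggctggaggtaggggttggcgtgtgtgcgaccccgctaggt
Mrps11: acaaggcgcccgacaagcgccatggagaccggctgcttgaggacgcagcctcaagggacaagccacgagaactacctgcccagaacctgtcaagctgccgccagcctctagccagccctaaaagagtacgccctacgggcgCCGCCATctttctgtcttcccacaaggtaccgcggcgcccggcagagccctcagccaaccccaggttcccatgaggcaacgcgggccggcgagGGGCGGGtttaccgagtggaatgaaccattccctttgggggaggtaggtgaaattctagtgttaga
Mrpl53 held 3 matches, an ETS core in each orientation and a YY1 core just after the start. Mrpl58 held 2 ETS cores in the same orientation, the nearer at position -2 from the start. Mrps12 held an ETS core at position 2, and Mrps15 held only an SP core at position -62.

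Many members begin back to back with another gene. A coding gene on the opposite strand started within 1000 bp upstream or in a head-to-head overlap for 34 of 79 members (43.0%), against 15.2% of the 13839 coding genes tested. Mrps11 and Mrpl46 overlap by 412 bp at their annotated starts, and their correlation across tumors was 0.753 with genotype means removed. Other partners include Sars2 beside Mrps12, the mitochondrial seryl-tRNA synthetase, and Ndufs6 and Ndufb5, subunits of respiratory complex I, beside Mrpl36 and Mrpl47. Over the 18 pairs whose exons do not overlap, the median correlation was 0.199, with 13 above 0, against a median of -0.00041 of these members with all genes. The range was wide, from -0.576 for Mrps18c with Helq to 0.853 for Mrpl30 with Mitd1. Mrps12 and Sars2 had a correlation of -0.088. Among the 15 overlapping pairs, which hold Mrps11 and Mrpl46 once under each gene, the median was 0.373, and there shared reads cannot be told apart from shared levels.

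The labelled comparison is that of KPY-Setd2KO with KPY-Ctrl, which asks whether loss of Setd2 goes with another level of these RNAs. None of the 79 members passed an adjusted p of 0.05 (edgeR quasi-likelihood test, Benjamini-Hochberg adjustment), and 0% of the 16836 genes did. At an unadjusted p under 0.05 there were 5 members, 3 higher and 2 lower in KPY-Setd2KO, where 13.7% of all genes (2311) reached that level. The median log2 fold change was 0.055 over the members, with 52 above 0 and 27 below, and 0.030 over all genes. It was 0.038 in the small subunit and 0.066 in the large, and single values ran from -0.42 (Mrps27) to 0.70 (Mrpl23). No member had ranges that did not overlap between the genotypes, as 0.327% of all genes did with KPY-Setd2KO higher and 0.244% with it lower.

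In the small subunit the smallest p belonged to genes that were lower in KPY-Setd2KO. Mrps27, a pentatricopeptide repeat protein, was at 18.6 to 23.0 CPM (median 20.6) in KPY-Ctrl and at 11.3 to 18.7 CPM (median 15.9) in KPY-Setd2KO. The ranges met at their edges only, and the log2 fold change was -0.42 (SE 0.14, adjusted p = 0.225). Mrps18b is one of the mammalian proteins related to bacterial S18, and it was counted here among the genes specific to mitochondria. It was at 24.3 to 40.2 CPM (median 30.8) in KPY-Ctrl and at 17.1 to 28.9 CPM (median 25.2) in KPY-Setd2KO. Its log2 fold change was -0.38 (SE 0.16, adjusted p = 0.328). Dap3, a GTP-binding small-subunit protein also studied in cell death, was at 50 to 72.0 CPM (median 54.2) and 39.8 to 53.4 CPM (median 48.5), with a log2 fold change of -0.23 (SE 0.12, adjusted p = 0.422). Mrps25 and Mrps33, both specific to mitochondria, had values in the other direction. Mrps25 was at 27.7 to 44.3 CPM (median 32.9) and 35.6 to 56.1 CPM (median 42.9), a log2 fold change of 0.30 (SE 0.14, adjusted p = 0.367). Mrps33 was at 24.8 to 50.5 CPM (median 35.9) in KPY-Ctrl and 31.8 to 72.8 CPM (median 53.7) in KPY-Setd2KO, with a log2 fold change of 0.49 (SE 0.23, adjusted p = 0.373). Mrps12, the counterpart of the bacterial decoding protein S12, had a log2 fold change of 0.0017 (SE 0.18), with medians of 26.7 CPM in both genotypes.

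In the large subunit the smallest p belonged to genes that were higher in KPY-Setd2KO. Mrpl39, specific to mitochondria, was at 32.5 to 48.0 CPM (median 37.7) in KPY-Ctrl and at 40.7 to 56.8 CPM (median 50.3) in KPY-Setd2KO. Its log2 fold change was 0.38 (SE 0.13, adjusted p = 0.214), and the adjusted p was 0.047 in DESeq2, the only call that tool made among the members (2.18% of 18988 genes were called higher and 1.52% lower). Mrpl2, the counterpart of bacterial L2 near the peptidyl transferase center, was at 28.2 to 44.4 CPM (median 38.3) and 41.7 to 65.7 CPM (median 48.3), with a log2 fold change of 0.42 (SE 0.14, adjusted p = 0.222). Mrpl51 was at 49.1 to 84.9 CPM (median 65.8) and 62.4 to 108 CPM (median 89.7), with a log2 fold change of 0.43 (SE 0.17, adjusted p = 0.277). These genes overlapped between the genotypes, with the higher median in KPY-Setd2KO. The values furthest from 0 were those of Mrpl18 at 0.49 (SE 0.24, adjusted p = 0.393) and Mrpl23 at 0.70 (SE 0.53, adjusted p = 0.620). Summed with its pseudogene, Mrpl23 stood at -0.17 (SE 0.21). Mrpl12, the stalk protein that receives translation factors, was at 40.0 to 91.7 CPM (median 51.3) and 52.2 to 86.5 CPM (median 68.9), a log2 fold change of 0.18 (SE 0.20, adjusted p = 0.783).

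**Figure D3:**
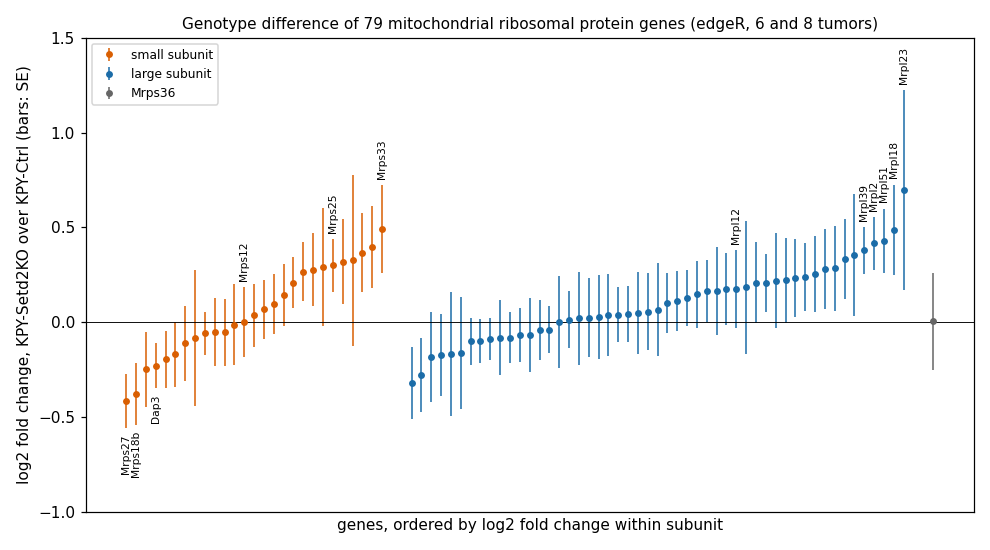
Log2 fold change of KPY-Setd2KO over KPY-Ctrl for each of the 79 genes, ordered within subunit, with the standard error derived from the edgeR F statistic (6 and 8 tumors). Values spread on both sides of 0 in each subunit, from -0.42 for Mrps27 to 0.70 for the thinly counted Mrpl23, and none passed the adjusted threshold.

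Since leukocyte-marker RNA varied widely within each genotype, the genotypes were also compared with the leukocyte score as a covariate. Mrps33 then passed the threshold at a log2 fold change of 0.42 (SE 0.097, adjusted p = 0.027) as the only member, where 2.99% of all genes were called higher and 2.23% lower. Its fold change was 0.45 among the tumors below the leukocyte gap and 0.49 among those above, without passing the threshold in either set of 7. Mrpl18 was at 0.42 (adjusted p = 0.051), Mrps23 at 0.32 (adjusted p = 0.057), and Mrpl39 and Mrpl51 at 0.38 and 0.41 (adjusted p = 0.059 each). The median of the members was 0.055 and that of all genes -0.012. Limma voom with sample quality weights called 33 members higher and 1 lower, where 24.7% of all genes were called higher and 24.5% lower. Its weights placed 14.3% of the KPY-Ctrl weight and 76.1% of the KPY-Setd2KO weight on tumors above the leukocyte gap, so that the weighted mean leukocyte score was 5.13 in KPY-Ctrl and 8.04 in KPY-Setd2KO, against 6.53 and 6.88 without weights.

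Many members followed the leukocyte score. In the fit on the leukocyte score with genotype as a covariate, 40 of 79 members had a positive slope past the threshold and 3 a negative one, where 28.4% of all genes were called in each direction. The median slope of the members was 0.070 log2 units per log2 unit of the score, against -0.0064 over all genes. Scaling by library size alone, in place of TMM, gave 17 positive and 23 negative calls (18.6% and 40.1% of all genes) and a member median of -0.0037 beside -0.086 over all genes, so the direction of the group depends on the scaling while its place above the median of all genes does not. TMM factors were 0.962 to 1.24 in tumors below the gap and 0.831 to 0.964 in those above it. Of the positive calls 13 were in the small subunit and 26 in the large, with Mrps36 as the remaining 1. By origin they included 25 of the 46 genes with a bacterial counterpart and 14 of the 32 specific to mitochondria. The difference between these shares was not tested.

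Mrps15, the counterpart of bacterial S15, had the steepest slope of the members at 0.37 (SE 0.026, adjusted p = 3.8e-08). It was at 17.9 to 30.1 CPM (median 19.8) in the 7 tumors below the leukocyte gap and at 50.6 to 85.3 CPM (median 73.1) in the 7 above. These ranges are far apart, and the same order held in both genotypes. Mrpl42, specific to mitochondria, was at 27.4 to 46.5 CPM (median 30.8) below the gap and 53.6 to 87.3 CPM (median 68.6) above, a slope of 0.25 (SE 0.022, adjusted p = 4.1e-07). Mrps18c, another S18-related protein, had a slope of 0.23 (SE 0.028, adjusted p = 9.0e-06), with 15.5 to 30.0 CPM below and 27.5 to 44.3 CPM above. Its ranges overlapped slightly. The negative slopes were those of Mrpl53 (-0.21, SE 0.056, adjusted p = 0.0048), Mrpl38 (-0.15, SE 0.038, adjusted p = 0.0044) and Mrpl19 (-0.066, SE 0.026, adjusted p = 0.041). Mrpl38 was the only member lower in every tumor above the gap, at 22.9 to 42.9 CPM against 43.8 to 67.8 CPM. In the opposite direction 13 members, or 16.5% of the 79, were higher in every tumor above the gap (13.6% of all genes; 9.35% were lower). They included Mrps6, Mrps22, Mrps23, Mrpl1, Mrpl15, Mrpl30, Mrpl33, Mrpl35 and Mrpl36. The score and the macrophage markers (mean log2 CPM 3.75 to 5.89 below the gap and 8.88 to 10.2 above) moved together, and their part in these slopes was not tested. Within either set of 7 tumors no member passed the threshold. Below the gap 0.896% of all genes were called positive and 0.254% negative, and above it 0%.

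The relation of the members to mitochondrially encoded RNA was read from the mean log2 CPM of the 13 mitochondrial mRNAs. This score was 10.64 to 11.82 in KPY-Ctrl (median 11.03) and 10.52 to 12.56 in KPY-Setd2KO (median 11.12), with the highest values in KPY-Setd2KO replicates 7 and 8. The means were 11.07 ± 0.42 and 11.33 ± 0.73 (SD, n = 6 and 8), a difference of 0.26 that was not larger than the spread between tumors (two-sided exact permutation test, p = 0.450). All 13 mRNAs had a log2 fold change above 0 and none passed the threshold. The smallest p was that of mt-Nd2, a subunit of complex I, at 0.86 (SE 0.36, adjusted p = 0.306).

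Over all 14 tumors the correlation of the member mean with this score depended on the scaling. With TMM, r was 0.170 and rho 0.033 after genotype means were removed, and r was -0.344 without the 2 tumors farthest from the median (KPY-Setd2KO replicate 7 and KPY-Ctrl replicate 6). With library size alone, r was 0.805. Within the 7 tumors below the leukocyte gap, r was 0.885 and rho 0.536, and without KPY-Setd2KO replicates 7 and 8 r was 0.363. Within the 7 above the gap, r was 0.794 and rho 0.857, and 0.663 without the 2 farthest (KPY-Ctrl replicate 6 and KPY-Setd2KO replicate 1). With genotype and the leukocyte score removed, r over the 14 tumors was 0.799, and 0.521 without the 2 farthest. The large-subunit mean had r = 0.843 and the small-subunit mean r = 0.652 on that scale. Without KPY-Setd2KO replicate 7 and KPY-Ctrl replicate 6 these were 0.594 and 0.362. These values are descriptions over tumors that share libraries and scaling. In a linear model of the member mean, 1 log2 unit of the mitochondrial score went with 0.22 (SE 0.052) and 1 log2 unit of the leukocyte score with 0.087 (SE 0.013), while genotype added -0.0066 (SE 0.056). This model was fitted to all 14 tumors only.

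**Figure D4:**
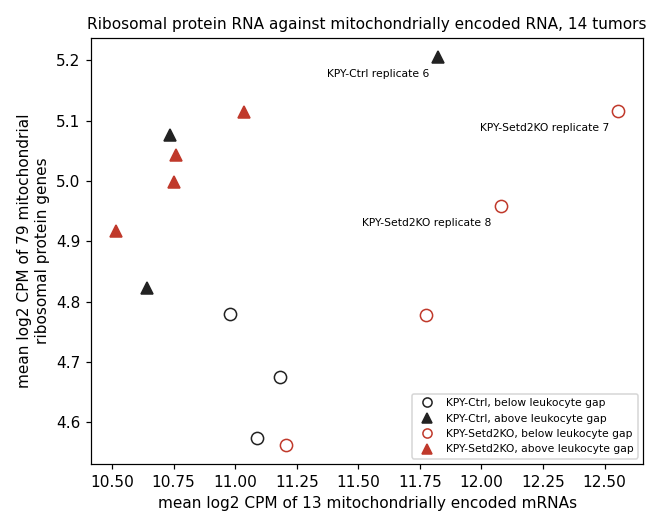
Mean log2 CPM of the 79 ribosomal protein genes against the mean log2 CPM of the 13 mitochondrially encoded mRNAs, 1 point per tumor, by genotype (color) and side of the gap in the leukocyte score (open circles below, filled triangles above). The sets lie on separate bands, with r = 0.885 below the gap, where 2 tumors carry the relation, and r = 0.794 above it.

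Gene by gene, 11 members had a positive slope on the mitochondrial score past the threshold and 1 a negative slope (7.94% and 6.8% of all genes). The median slope was 0.025, against 0.042 over all genes, and -0.040 without KPY-Ctrl replicate 6. Scaling by library size alone gave 29 positive and 4 negative calls (26.6% and 13.5% of all genes). Markers of cell types moved with the score in the same fit. The slopes of 8 of 8 epithelial markers were above 0 (median 1.17, 1 called) and those of 6 of 6 lung-lineage markers were called positive (median 1.35), while 12 of 12 leukocyte markers (median -1.65) and 10 of 10 macrophage markers (median -2.03) were below 0 with none called. Their part in the members' slopes was not tested. Among the members, the smallest p were those of Mrpl53 (0.98 log2 units per log2 unit, SE 0.19, adjusted p = 0.010), Mrpl54 (0.57, SE 0.12, adjusted p = 0.013) and Mrps7, the counterpart of the bacterial head protein S7 (0.39, SE 0.089, adjusted p = 0.017). Mrpl53 was at 17.0 to 32.9 CPM (median 27.6) in KPY-Ctrl and 11 to 48.9 CPM (median 26.9) in KPY-Setd2KO, so its spread was wider in the knockout group. The negative slope was that of Mrps2, the counterpart of bacterial S2 (-0.39, SE 0.12, adjusted p = 0.044), followed by Mrps9 (-0.37, adjusted p = 0.105) and Mrpl45 (-0.28, adjusted p = 0.110), which did not pass. Without KPY-Setd2KO replicate 7 the positive calls were 1 (1.87% of all genes). Without replicate 2, 4 or 8 of that genotype they were 2, 7 and 6 (2.41%, 3.81% and 3.79% of all genes), so calls fell over all genes as well. The negative call was lost without KPY-Ctrl replicate 1 or 2 or KPY-Setd2KO replicate 1, 2, 3, 4, 7 or 8, and 6 members were called negative without KPY-Ctrl replicate 6 (17.6% of all genes). No member passed a test of a different slope in each genotype (edgeR interaction test, 0 members at an unadjusted p under 0.05, smallest adjusted p = 0.977). Over all 16836 genes 277 were at an unadjusted p under 0.05 with a positive difference and 313 with a negative one, and 1 was called.

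With the leukocyte score as a covariate the slopes were positive for 62 of 79 members, where 53.2% of all genes had a positive slope, and their median was 0.24 against 0.032 over all genes. Positive calls numbered 18, with 6 in the small and 12 in the large subunit, and there was no negative call (6.11% and 3.86% of all genes). In this fit the slopes of 8 of 8 epithelial markers (median 0.49, 1 called) and 6 of 6 lung-lineage markers (median 0.76, 3 called) were also above 0, and those of 8 of 10 macrophage markers were below 0 (median -0.33, 2 called). Their part in the members' slopes was not tested. Mrpl58, a peptidyl-tRNA hydrolase that releases stalled chains, had the smallest p at 0.55 (SE 0.084, adjusted p = 0.00195). It was at 22.1 to 50.2 CPM (median 33.6) in KPY-Setd2KO and 19.5 to 41.6 CPM (median 24.1) in KPY-Ctrl. Mrps12 followed at 0.53 (SE 0.093, adjusted p = 0.00455), and Mrpl12 was called at 0.47 (SE 0.13, adjusted p = 0.035). Mrpl54, Mrpl53, Mrps7, Mrpl38, Mrpl52, Mrpl28, Mrpl44, Mrps34, Mrps12 and Mrpl23 were called in both fits, and Mrps2 was no longer past the threshold (-0.30, adjusted p = 0.110). Mrpl23 was called by itself (1.27, adjusted p = 0.030) and summed with its pseudogene (0.47, adjusted p = 0.023). In the edgeR fit without the leukocyte covariate the summed row was not called (0.21, adjusted p = 0.360). The number of calls rested on few tumors. It was 2 without KPY-Setd2KO replicate 7 (1.86% of all genes), 6 without KPY-Ctrl replicate 6 (2.7%), and 0 without both, when no gene in the table was called. It was 11 and 9 without KPY-Ctrl replicate 2 or 5 (5.26% and 4.42% of all genes), and 10, 6 and 8 without KPY-Setd2KO replicate 2, 5 or 8 (4.21%, 3.4% and 3.9%). Each slope is expressed relative to the library, of which mitochondrial RNA is itself a part.

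**Figure D5:**
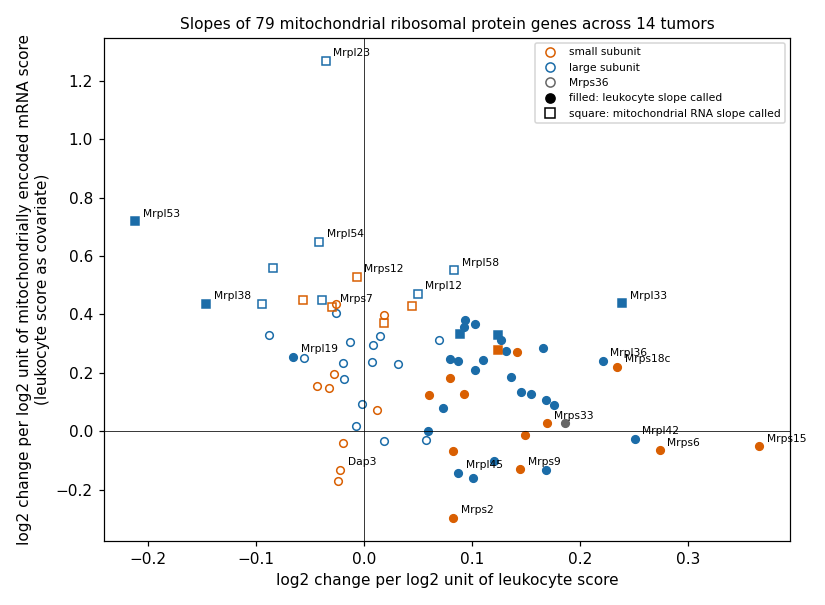
Slope of each of the 79 genes on the leukocyte score (horizontal axis) and on the mitochondrially encoded mRNA score with the leukocyte score as covariate (vertical axis), in log2 units per log2 unit, colored by subunit; filled symbols passed the threshold on the horizontal axis and squares on the vertical axis. Mrps15 and Mrpl42 lie far to the right near 0 on the vertical axis, while Mrpl53 and Mrpl38 lie to the left with slopes of 0.72 and 0.44 on the mitochondrial score.

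Other genes of mitochondrial translation were read from lists of genes. None of the 17 mitochondrial aminoacyl-tRNA synthetases, 22 assembly factors of the mitochondrial ribosome, 11 translation factors or 9 transcription and RNA-processing factors passed the threshold by genotype. Over all genes 0% passed it. The median log2 fold change was -0.094 in the synthetases (13 of 17 below 0), -0.094 in the assembly factors (14 of 22 below 0), 0.086 in the translation factors (5 of 11 below 0) and -0.076 in the transcription factors (7 of 9 below 0). Dhx30, an RNA helicase of mitochondrial ribosome assembly, was at 37.0 to 55.9 CPM (median 47.4) in KPY-Ctrl and 26.5 to 38.1 CPM (median 31.4) in KPY-Setd2KO. Its log2 fold change was -0.54 (SE 0.14, adjusted p = 0.132), and -0.53 (adjusted p = 0.022) with the leukocyte covariate, the only call in these lists in that fit. The same fit called 2.99% of all genes higher and 2.23% lower. The smallest p in the other lists belonged to the tyrosyl-tRNA synthetase Yars2 (-0.42, adjusted p = 0.237), the recycling factor Gfm2 (-0.34, adjusted p = 0.248), and Mterf2 of the transcription termination factor family (-0.93, adjusted p = 0.245). Among 4 ribosome subunits with other names, Ptcd3 had the smallest p (-0.40, adjusted p = 0.357), and Chchd1 (0.40, adjusted p = 0.032) and Gadd45gip1 (0.55, adjusted p = 0.030) had positive slopes on the mitochondrial score with the leukocyte covariate. On that slope 2 synthetases were called, Lars2 (1.43, adjusted p = 0.00061) and Ears2 (0.59, adjusted p = 0.022), and none of the assembly, translation or transcription factors. Of the mitochondrial ribosomal RNAs, mt-Rnr1 (1.25, adjusted p = 0.0092) and mt-Rnr2 (1.6, adjusted p = 0.00265) were both called on it, and their genotype differences were 0.052 (SE 0.49) and -0.51 (SE 0.56). On the slope with the leukocyte covariate 6.11% of all genes were called positive and 3.86% negative. Without KPY-Setd2KO replicate 7 and KPY-Ctrl replicate 6 no gene in the table was called on it.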

How the data were processed

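The RNA of 6 KPY-Ctrl and 8 KPY-Setd2KO tumors was sequenced. For all of them the authors deposited 1 table of estimated counts per Ensembl gene, given as whole numbers without normalization. The submitters' processing notes name Salmon 0.8.2 and GRCm38.p5, and no further filter is given in the sources used here. All 14 columns were matched to a sample by name. Symbols and coordinates came from GENCODE M21 (GRCm38), which matched 52403 of 52550 identifiers, and promoters from RefSeq.

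The tests used edgeR 4.0.16 (R 4.3.3) with TMM factors, its expression filter and the robust quasi-likelihood test, adjusted by Benjamini-Hochberg over all 16836 genes. The threshold for a call was 0.05 on the adjusted p. Log2 CPM used a prior count of 2. For the edgeR fits, SE is the absolute fold change or slope divided by the square root of the F statistic of its test. DESeq2 1.42.0 and limma 3.58.1 were alternatives, with other scalings, filters, covariates, a replicate block and leaving out each tumor. The procedure was tested on simulated data. The members, the gene lists, the covariates and the tests were chosen with earlier results of these data known. The 2 sides of the leukocyte gap came from measured values.

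Named genes were Setd2, Dap3, Mrpl12 and Mrps12, in each subunit the 3 smallest p and 2 largest changes by genotype and the 2 highest and 2 lowest levels, and the 3 smallest p in each direction for each slope. In every other list of mitochondrial translation the gene with the smallest p by genotype was added. Mrpl58, Mrps6, Mrpl17 and other genes named beyond this were chosen after their values were seen. Counts are of reads without molecular identifiers. No 2 tumors held identical counts. A further engineered allele shared by all tumors is not reported here.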

Additional observations from a re-analysis of the deposited data

Results flagged for a closer look

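Dap3 was the 1 value that stood apart, of 58 groups of 6 or 8 tumors examined for an isolated highest or lowest tumor over the named members and scores. Chance gives about 1 such value in 20 groups. In KPY-Ctrl replicate 3, Dap3 was at 6.17 log2 CPM, and the other 5 KPY-Ctrl tumors lay between 5.65 and 5.78.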

How the results depend on the processing

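The count of members called by genotype was 0 in edgeR under every scaling, filter and left-out tumor (0 to 0). It was also 0 with the mitochondrial covariate and within either side of the leukocyte gap. In these fits 0% of all genes were called, with these exceptions. Without KPY-Ctrl replicate 6, 0.00582% were called lower, and below the gap 3.31% were called higher and 2.95% lower. The count of members was 1 in DESeq2 (2.18% of all genes higher and 1.52% lower) and 1 with the leukocyte covariate (2.99% and 2.23%). It was 34 in limma voom with quality weights (24.7% and 24.5%), where the median log2 fold change of the members was 0.30. In edgeR that median stayed between 0.030 and 0.13 without each tumor. With the replicate block, 0 members were called by genotype (median 0.027), 0 positive on the mitochondrial score (0% of all genes) and 28 positive on the leukocyte score (16.9%), and Mrpl54 and Mrps7 turned to -0.54 and -0.23 on the mitochondrial score. Whether same-numbered tumors belong together is not given in the labels. The correlations of their deviations ran from -0.664 to 0.657. They were 0.522, 0.602 and 0.657 for replicates 1, 2 and 5, whose tumors lay on the same side of the leukocyte gap. For replicates 3, 4 and 6, on opposite sides, they were -0.483, -0.664 and -0.355. Since their sign followed the gap, these values cannot decide whether the numbers pair tumors.

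Positive calls on the mitochondrial score were 18 with the leukocyte covariate, 29 with library size only, 0 below and 0 above the leukocyte gap (7 tumors each, chosen after seeing the data), and 1 to 13 without each tumor. Over all genes the shares were 6.11%, 26.6%, 0% below and 0% above the gap, and 1.87% to 16.4% without each tumor. Positive calls on the leukocyte score were 17 with library size only, 0 in either set of 7 tumors, and 30 to 42 without each tumor. The shares of all genes were 18.6%, 0.896% below and 0% above the gap, and 26.2% to 28.8% without each tumor. With the mitochondrial share of counts as the score there were 12 positive and 9 negative calls (20% and 18.6% of all genes). The correlation of the member mean with the mitochondrial score was 0.805 with library size only, 0.885 and 0.794 below and above the gap, 0.799 with genotype and leukocyte score removed, and -0.052 to 0.229 without each tumor. The genotype difference in mitochondrially encoded RNA was 0.086 to 0.41 without each tumor. Within a set of 7, Mrps9 turned to 0.17 on the mitochondrial score (below), and on the leukocyte score Mrps18c turned to -0.69 (above) and Mrpl38 and Mrpl53 to 0.097 and 0.096 (below). Mrpl23 turned to -0.17 by genotype when summed with its pseudogene. The cause of these changes was not tested. The planned permutation test of the mitochondrial score against the leukocyte and epithelial scores over all tumors was not run, and the relation was described within each side of the gap. Below it, r was 0.732 with the leukocyte and 0.403 with the epithelial score (0.028 and 0.738 without KPY-Setd2KO replicates 7 and 8). Above it, r was -0.845 and 0.474 (-0.230 and 0.571 without KPY-Ctrl replicate 6 and KPY-Setd2KO replicate 1).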
